A study of Mus musculus with 3 samples.

Results

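Endothelial cells were picked out of 3 whole mouse neuroblastoma tumors profiled by droplet single-cell RNA sequencing. A cell counted as endothelial when at least 3 of 8 endothelial genes (Cdh5, Vwf, Kdr, Flt1, Egfl7, Emcn, Cldn5 and Tie1) had a transcript and fewer than 3 of 6 stromal genes (Dcn, Lum, Col1a1, Col1a2, Pdgfra and Rgs5) had one. This rule found 74 of the 5650 cells that the authors kept, 38 in tumor 1, 11 in tumor 2 and 25 in tumor 3. The mice were heterozygous for the TH-MYCN transgene, in which the tyrosine hydroxylase promoter drives human MYCN in cells of the sympathetic lineage, so that neuroblastoma arises in an animal with its own vessels and immune cells. They were 62, 79 and 63 days old when tumors 1, 2 and 3 were taken, 1 tumor per mouse. All 3 tumors form 1 group with no treatment and no normal tissue for comparison, and each was dissociated fresh with a collagenase mixture and DNase. A transcript was counted as a unique molecular identifier (UMI), a tag that marks each captured RNA molecule.

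Endothelial cells line blood vessels and set what passes through the vessel wall. Growing tumors draw in new vessels through vascular endothelial growth factor (VEGF), which acts on endothelial receptors, while angiopoietins, Notch and BMP signals set how far sprouts extend and when vessels mature. Sprouts are led by tip cells, and behind them arterial, venous and capillary endothelium carry partly different genes.

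The 8 genes of the rule are given as a description, since they chose the cells. Of the 74 cells, 69 had a UMI of Cdh5 (VE-cadherin, the adhesion molecule of endothelial junctions) and 69 had one of Egfl7. Kdr, Flt1 and Emcn were each seen in 62 cells, Tie1 in 57, Cldn5 in 37 and Vwf in 31. Among the other 5576 kept cells the same genes were seen in 0.323% to 3.30%. Cells were fewest at 3 and 4 of these genes, with no empty count between 1 and 8. Of all kept cells, 499 had 1 of the 8 genes and 56 had 2, 6 had 3 and 5 had 4, while 12 had 5, 18 had 6, 23 had 7 and 12 had all 8. The stromal genes Lum and Pdgfra had no UMI in any of the 74 cells. Dcn had 71 UMIs in 5 cells, all in tumor 1, and Col1a1 and Rgs5 had 8 UMIs in 7 cells each.

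**Figure D1:**
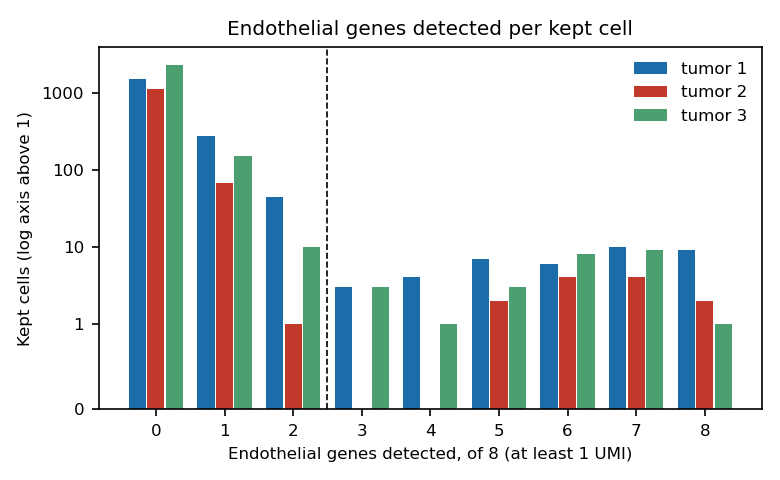
Number of the 8 endothelial genes detected with at least 1 UMI in each kept cell (x axis) against the number of cells (y axis, log scale above 1), by tumor. Cells right of the dashed line have 3 or more genes, and beside the line lie 56 cells with 2 genes and 6 with 3.

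Transcripts of other cell types were present. The summed level of the 9 genes that marked tumor-like cells in the endothelial cells was 25.1, 154 and 530.2 CPM (counts scaled to the raw total of UMIs) in tumors 1, 2 and 3, and 5 cells of tumor 3 and 1 of tumor 2 had 3 or more of these genes. The 8 macrophage-like genes summed to 422, 827 and 359 CPM, with at least 1 of them in 26 of 38 cells of tumor 1, 7 of 11 of tumor 2 and 14 of 25 of tumor 3, and 3 or more in 2 cells of tumor 1. Hemoglobin and Alas2 transcripts summed to 986 on the same scale in tumor 1, where all 38 cells had some, to 0 in tumor 2 and to 98.8 in tumor 3. The 5 neutrophil genes summed to 493 in tumor 1, with 3 or more of them in 4 cells, and were at 0 in tumors 2 and 3. The 10 pericyte and smooth muscle genes summed to 158, 266 and 44.9 CPM, with at least 1 in 20, 6 and 4 cells and 2 or more in 6, 3 and 0. Pdgfrb, Notch3, Cspg4, Des and Cnn1 of this list were at 0 in every tumor. The 69, 19 and 5 UMIs of the list came from Kcnj8, Abcc9 and Tagln in each tumor, and also from Acta2 and Myh11 in tumor 1. Abcc9 had 41 UMIs in the endothelial cells and 1 in tumor-like cells. The comparisons below were repeated without the 3, 1 and 5 cells of tumors 1, 2 and 3 that carried 3 or more tumor-like or macrophage-like genes, or Ptprc with 2 or more lymphocyte or neutrophil genes, and with the cells that had no stromal transcript. The part of hemoglobin transcripts was not tested. Endothelial cells had a median of 8519, 3859 and 4505 UMIs in tumors 1, 2 and 3, above the 2446, 1824 and 1987 of tumor-like cells. Their median share of mitochondrial UMIs was 6.5%, 5.59% and 7.66%. No endothelial barcode occurred in more than 1 tumor.

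Endothelial cells made up 1.99% of the kept cells in tumor 1 (38 of 1914, exact binomial 95% interval 1.41% to 2.71%), 0.901% in tumor 2 (11 of 1221, 0.451% to 1.61%) and 0.994% in tumor 3 (25 of 2515, 0.644% to 1.46%). The mean was 1.29% ± 0.601 (SD, n = 3). The interval of tumor 1 overlapped those of the other two. Requiring only 2 endothelial genes gave 3.87%, 0.983% and 1.31% in tumors 1, 2 and 3, and allowing no stromal transcript at all gave 0.940%, 0.819% and 0.994%, so that the order of the tumors depended on the rule. These are shares of cells that survived dissociation and the authors' limits, and the intervals cover counting error only.

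To ask which other genes set the endothelial cells apart, raw counts were summed per tumor and compared with the sums of 3 other classes of kept cells, formed by the same kind of rule. These were stromal-like cells (113, chosen by genes of fibroblasts and perivascular cells), macrophage-like cells (669) and tumor-like cells (1579), each present in every tumor. The stromal-like class also held mesothelial transcripts. Its 5 mesothelial genes summed to 1058, 2092 and 473 CPM of the raw total in tumors 1, 2 and 3. At least 3 of them were seen in 15 of 80, 5 of 11 and 3 of 22 cells. Like the endothelial class, and unlike the macrophage-like and tumor-like classes, the stromal-like class had no limit on macrophage-like or tumor-like genes. Differences are log2 fold changes of CPM with a standard error, from edgeR's quasi-likelihood test with Benjamini-Hochberg adjustment over all genes tested, and n is 3 tumors throughout. The p-values rest on 1 estimate of the spread per gene, shared by the sums of all classes over these 3 animals. They treat the sums as independent, although the classes of a tumor come from the same animal. The genes that made the classes were given no test. Genes listed as those behind a count, and Unc5b, Rgcc, Stab2, Ackr1 and Sele, were named after their values were seen. Genes that travel with them in a cell differ between classes through the way the classes were formed. Against stromal-like cells 7003 genes were tested, of which 333 (4.76%) were higher in endothelial cells and 402 (5.74%) lower at an adjusted p under 0.05. Against macrophage-like cells 767 of 6987 (11%) were higher and 794 (11.4%) lower, and against tumor-like cells 1464 (21%) were higher and 907 (13%) lower. In all 3 comparisons 248 genes (3.55%) were higher, and 10 (0.143%) were lower. With 1 tumor left out the counts fell. Against stromal-like cells 211, 214 and 181 genes were higher without tumor 1, 2 and 3, and 221 were lower without tumor 1. Against macrophage-like cells 455 were higher without tumor 1, and 395 and 527 were lower without tumors 1 and 3. Against tumor-like cells 925 were higher without tumor 1, and 538, 234 and 418 were lower without tumors 1, 2 and 3. Without the cells that carried several genes of another cell type 338 genes were higher and 429 lower than in stromal-like cells, 862 and 634 than in macrophage-like cells, and 1560 and 732 than in tumor-like cells. Of the calls made with all cells, 93.4% and 95.5%, 98.7% and 78.5%, and 97.4% and 76.6% were made again. With the cells that had no stromal transcript the counts were 336 and 390, 725 and 772, and 1258 and 730. Counts of a list given below are over its genes that passed the filter on low counts, such as 17 of 25 transcription factors. Some genes are counted in more than 1 list, so that the lists are not separate evidence. Cd36, Fabp4 and Gpihbp1 are in the capillary and fatty acid lists, and Dll4 is in the tip cell, arterial and Notch lists. Where such a count is given without a tumor, the genes behind it can be others than those named. The median log2 fold change over all genes tested was -0.04, -0.16 and -0.07 against stromal-like, macrophage-like and tumor-like cells.

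**Figure D2:**
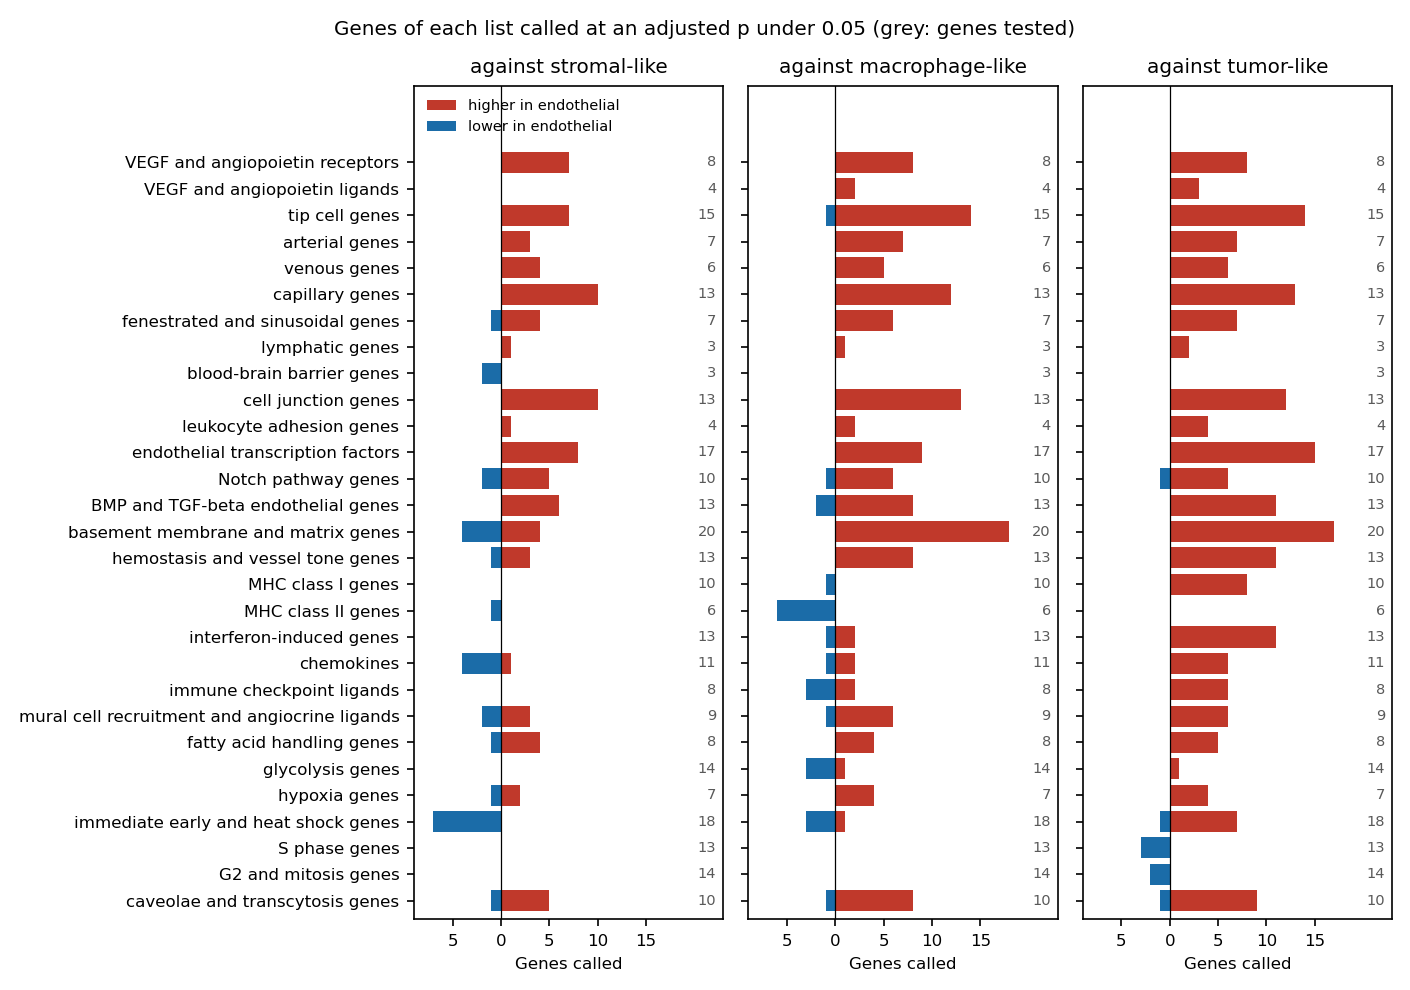
Genes of 29 lists that were higher (red, right of 0) or lower (blue, left of 0) in endothelial cells than in stromal-like, macrophage-like and tumor-like cells at an adjusted p under 0.05, with the number tested in grey at the right of each panel. The receptor, tip cell, capillary and junction lists lie almost wholly to the right, while immediate early and heat shock genes lie to the left against stromal-like cells (7 of 18).

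Most receptors for VEGF, angiopoietins and guidance signals were higher in endothelial cells than in each other class. Beside Kdr, Flt1 and Tie1, which chose the cells, 8 such genes were tested. Of these 7 were higher than in stromal-like cells (median log2 fold change 3.59), and all 8 were higher than in macrophage-like and tumor-like cells (medians 7.99 and 5.78). Ptprb (VE-PTP, a phosphatase that restrains Tek and VE-cadherin signaling) stood at 972, 793 and 929 CPM in tumors 1, 2 and 3. Stromal-like sums had 7.05, 0 and 0 CPM, so that the groups did not overlap, with a log2 fold change of 7.34 ± 0.53 (adjusted p = 3.38e-06). Nrp1, a coreceptor for VEGF and semaphorins, stood at 377, 502 and 593 CPM in endothelial and at 128, 159.9 and 168 CPM in stromal-like sums. Its difference was the smallest of the 7 that were higher, at 1.71 ± 0.29 on the log2 scale (adjusted p = 0.00122), against 5.09 ± 0.33 over tumor-like sums. Plxnd1, a semaphorin receptor, stood at 632, 344 and 430.0 CPM, above the 33.0 ± 5.34 CPM (SD, n = 3) of stromal-like sums by 3.76 ± 0.34 (adjusted p = 1.38e-05). Tek, the receptor of the angiopoietins, had 145, 225 and 68.8 CPM and differed from stromal-like sums by 3.63 ± 0.57 (adjusted p = 0.00061). Robo4, which stabilizes the vessel wall, had 283, 396 and 172 CPM. No stromal-like sum held a UMI of Robo4, so that its level was at least 152-fold higher in endothelial cells, taking 3 counts over the 3 stromal-like sums as the floor. Such bounds, here and below, pool the tumors, whose stromal-like sums held 1592265, 127651 and 131087 UMIs in tumors 1, 2 and 3. They need not hold within each tumor. Unc5b, a netrin receptor, was the exception at 140.4, 39.6 and 189 CPM against 56.4, 28.2 and 32.1 CPM in stromal-like sums (1.54 ± 0.62, adjusted p = 0.165). The stromal-like call of Nrp2, which binds VEGF-C and semaphorins (2.27 ± 0.53, adjusted p = 0.0117), was lost without tumor 1 (1.73, adjusted p = 0.107). That of Flt4, the VEGF-C receptor (3.55 ± 0.74, adjusted p = 0.00516), was lost without tumor 1 (2.47, adjusted p = 0.218) and without tumor 3 (3.30, adjusted p = 0.0652). Against tumor-like sums that of Nrp2 (1.45 ± 0.46, adjusted p = 0.0264) was lost without tumor 2 (adjusted p = 0.127) and without tumor 3 (adjusted p = 0.0739).

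The ligands of these receptors ranged in the endothelial cells from Vegfd with no UMI to Angpt2 with 568 CPM in tumor 2. Vegfa had 2 UMIs in all 74 cells, while the sums of stromal-like, macrophage-like and tumor-like cells held 30.1 ± 12.2, 24.2 ± 15 and 24.4 ± 0.659 CPM (SD, n = 3), and it was too low to be tested. The ratio of pooled counts was 0.128 (95% counting interval 0.0153 to 0.477) over tumor-like sums, which covers counting error only. Vegfd had no UMI in endothelial cells against 198, 113 and 0 CPM in stromal-like sums, at least 38.3-fold lower in the pooled counts. In tumor 3 neither class had a UMI of Vegfd. Vegfb stood at 19.7, 0 and 25.8 CPM and Angpt1 had 2 UMIs. Vegfc had 43.9, 0 and 43.0 CPM and exceeded tumor-like sums by 5.28 ± 1.04 (adjusted p = 0.00156), a call that could not be made without tumor 1 or 3, where the gene fell under the filter on low counts. Pgf, which binds Flt1, had 19 UMIs and was not tested. Angpt2, the angiopoietin that endothelial cells release when vessels are remodeled, had 92.2, 568 and 60.2 CPM, and 1 cell gave 53.5% of the tumor 2 value. It was higher than in macrophage-like (6.5 ± 0.91, adjusted p = 0.000124) and tumor-like sums (4.89 ± 0.75, adjusted p = 0.000205), but it did not pass the test against the 77.4 ± 24.0 CPM of stromal-like sums (1.38 ± 0.65, adjusted p = 0.259). Of the 4 ligands tested, none passed against stromal-like cells, 2 were higher than in macrophage-like cells (1 without tumor 1, 1 without tumor 2) and 3 were higher than in tumor-like cells (1 without tumor 1).

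Tip cell genes were prominent. Of 15 tested, 7 were higher than in stromal-like cells (Apln, Esm1, Dll4, Nid2, Trp53i11, Kcne3 and Ednrb), and 14 were higher than in macrophage-like and in tumor-like cells. None was lower than in stromal-like cells, against 1 with a replicate block. Esm1 (endocan, a proteoglycan that VEGF induces; chr13:113209659-113218098, plus strand, GRCm38) had 211, 1018 and 697 CPM and a UMI in 36 of the 74 cells. The other classes held 1 UMI in stromal-like and 1 in macrophage-like sums, giving ratios of pooled counts of 647 (95% counting interval 115 to 25654) and 1731 (95% counting interval 308 to 68643). Over tumor-like sums (0, 1.99 and 3.80 CPM) the log2 fold change was 7.77 ± 0.66 (adjusted p = 1.87e-06). Apln, the ligand apelin, was seen in 20 cells at 98.7, 145 and 94.6 CPM, and its log2 fold changes were 6.38 ± 0.64, 7.56 ± 0.62 and 5.73 ± 0.50 over stromal-like, macrophage-like and tumor-like sums (adjusted p = 2.88e-05, 2.1e-06 and 2.1e-06). Dll4, the Notch ligand of tip cells, had 136, 106 and 224 CPM and no UMI in stromal-like sums, at least 81.5-fold higher. Kcne3, a potassium channel subunit, had 50.5, 211 and 533 CPM and no UMI in 1579 tumor-like cells, at least 194-fold higher, and 1 cell gave 65.2% of the tumor 1 value. Ednrb, the endothelin B receptor, had 323, 595 and 413 CPM and no stromal-like UMI, at least 204-fold higher. Cxcr4, the receptor of Cxcl12, was the gene of the list that was lower than in macrophage-like cells, at 74.6, 79.3 and 51.6 CPM against 241 ± 132 (-1.84 ± 0.61, adjusted p = 0.0449). This call was lost without tumor 1 (adjusted p = 0.0965), tumor 2 (0.0895) or tumor 3 (0.0852).

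Genes of capillary and fenestrated endothelium were among the clearest. Of 13 capillary genes tested, 10 were higher than in stromal-like cells (median log2 fold change 5.16), 12 than in macrophage-like cells (5.59) and 13 than in tumor-like cells (7.39). Plvap (chr8:71497765-71511752, minus strand), which forms the diaphragms of fenestrae and caveolae, had 1312, 2141 and 1195 CPM and a UMI in 62 of the 74 cells. The other classes had 6.34, 0 and 8.01 CPM (stromal-like), 1.54, 0 and 0 (macrophage-like) and 5.47, 1.99 and 3.37 (tumor-like), so that no tumor's endothelial level overlapped them. Log2 fold changes were 8.01 ± 0.54, 10.11 ± 0.59 and 8.83 ± 0.52 (adjusted p = 3.13e-06, 4.05e-07 and 2.75e-07). Gpihbp1 (chr15:75596628-75599481, plus strand), which carries lipoprotein lipase to the capillary lumen, had 535, 2128 and 1368 CPM and exceeded tumor-like sums by 8.90 ± 0.78 (adjusted p = 2.25e-06). Fabp4 (chr3:10204088-10208576, minus strand), a fatty acid binding protein, had 2025, 14643 and 2288 CPM. Its level was highest in tumor 2 and was above the 697, 639 and 633 CPM of stromal-like sums in every tumor (3.26 ± 0.66, adjusted p = 0.00428). Cd36, the fatty acid transporter, varied likewise at 189, 833 and 77.4 CPM and differed from stromal-like sums by 6.23 ± 0.99 (adjusted p = 0.000697). Aqp1, a water channel, had 566, 859 and 309.6 CPM (6.08 ± 0.66, adjusted p = 4.29e-05) and Rgcc had 261, 436 and 309.6 CPM (5.59 ± 0.49 over macrophage-like sums, adjusted p = 2.94e-06). Ramp2, which together with Calcrl forms the adrenomedullin receptor, was even across the tumors at 702, 753 and 774 CPM (5.16 ± 0.52 over stromal-like sums, adjusted p = 2.88e-05). Calcrl itself had 156, 185 and 138 CPM (4.49 ± 0.61, adjusted p = 0.000232). It is named with Ramp2 after its values were seen.

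**Figure D3:**
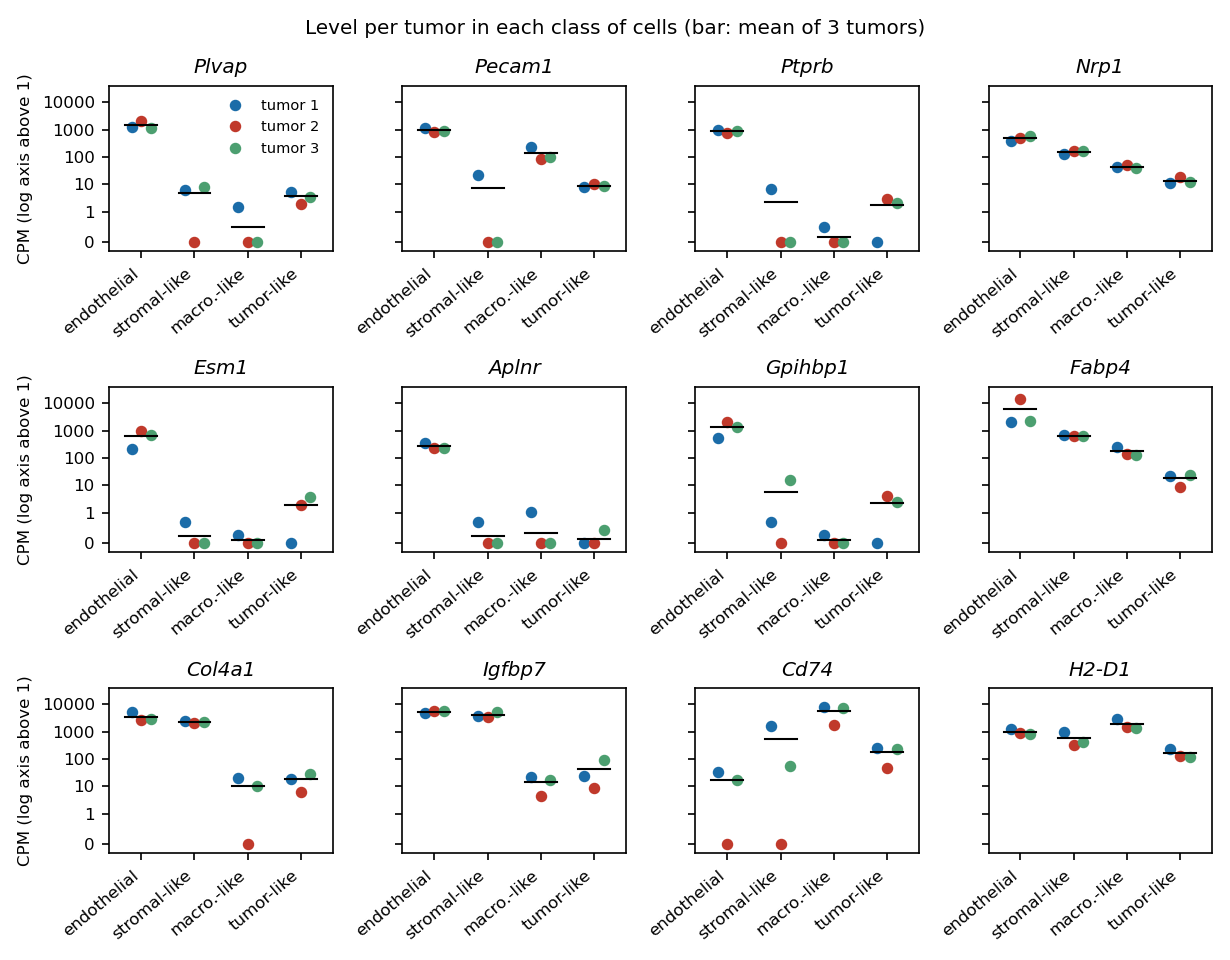
Level of 12 genes in CPM (y axis, log scale above 1) in each class of cells, with 1 point per tumor and the mean of the 3 tumors as a bar. The first 8 panels have endothelial points above those of every other class, Col4a1 and Igfbp7 lie near stromal-like cells, and Cd74 is highest in macrophage-like cells.

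Of 7 fenestrated and sinusoidal genes tested, 4 were higher than in stromal-like cells, 6 than in macrophage-like cells and 7 than in tumor-like cells. Igfbp3, which binds insulin-like growth factors, had 2080.0, 1507 and 3354 CPM in endothelial and 56.8 ± 21.3 CPM in stromal-like sums (5.50 ± 0.47, adjusted p = 8.71e-06). Stab1, a scavenger receptor of sinusoids and macrophages, had 369, 291 and 189 CPM and was above stromal-like sums by 5.74 ± 0.68 (adjusted p = 8.92e-05). Its difference from macrophage-like sums (1.34 ± 0.45, adjusted p = 0.0481) was lost without tumor 1 (adjusted p = 0.295), tumor 2 (0.189) or tumor 3 (0.0592). Stab2 had 2 UMIs in 1 cell. Gas6, a ligand of TAM receptors that was named after its values were seen, was lower than in stromal-like sums (41.7, 79.3 and 51.6 against 509 ± 114 CPM, -3.25 ± 0.42, adjusted p = 0.000147).

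Arterial and venous genes were both present. Of 7 arterial genes tested, 3 were higher than in stromal-like cells (1 without tumor 3) and 7 than in each of the other 2 classes. Efnb2, the arterial ephrin, had 186, 52.9 and 525 CPM, highest in tumor 3. Its stromal-like difference of 3.29 ± 0.68 (adjusted p = 0.00476) was lost without tumor 3 (2.10, adjusted p = 0.106). Gja4, a gap junction protein of arterial endothelium, had 202, 0 and 138 CPM and did not pass against the 42.0 ± 28.2 CPM of stromal-like sums (2.0 ± 0.75, adjusted p = 0.128). Gja5, another arterial connexin, had 37.3, 13.2 and 249 CPM from 12 cells and no UMI in any other class. Pooled over the tumors it was at least 39.9-fold, 107-fold and 90.5-fold higher than in stromal-like, macrophage-like and tumor-like cells. It was too low to be tested. Of 6 venous genes tested, 4 were higher than in stromal-like cells (1 without tumor 1), 5 than in macrophage-like cells (3 without tumor 1) and 6 than in tumor-like cells (3 without tumor 1). Aplnr (the apelin receptor, chr2:85136225-85139923, plus strand) had 364, 225 and 232 CPM in 38 cells. Its log2 fold changes were 8.57 ± 0.64, 8.12 ± 0.54 and 9.44 ± 0.56 (adjusted p = 3.38e-06, 6e-07 and 2.75e-07). Nr2f2, a transcription factor of venous identity, had 173, 291 and 77.4 CPM against 164 ± 112 in stromal-like sums (0.08 ± 0.55, adjusted p = 0.975). It was above macrophage-like sums by 5.62 ± 0.78 (adjusted p = 0.000113). Selp (P-selectin, which captures leukocytes on venules) had 42 UMIs in 11 cells, 9 of them in tumor 1, and Ackr1, a marker of venules, had 1 UMI.

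The promoters of genes higher than in all 3 classes were searched for short sequences that endothelial transcription factors bind. Windows held the 250 bases before the start site in RefSeq's annotation of GRCm38.p6, which were found for 170 of the 248 genes and for 5493 of all genes tested, and both strands were searched. The ETS sequence CAGGAAG was found in 37 of 170 windows (21.8%) against 671 of 5493 (12.2%), while the ETS sequence CCGGAAG was found in 12 (7.06%) against 932 (17.0%). Either one was found in 47 (27.6%) against 1504 (27.4%). The forkhead sequence GTAAACA was in 2 (1.18%) against 145 (2.64%), and the KLF sequence CACACCC in 16 (9.41%) against 474 (8.63%). A match is a description of the letters and no measure of binding. The windows of Robo4, Calcrl and Apln, 3 receptor and ligand genes described above, are printed 5′ to 3′ on the strand of the gene, with CAGGAAG or its reverse complement in capitals. The match began 50 bases before the start site in Robo4 (chr9:37401722-37401971, plus strand), 67 before in Calcrl (chr2:84425267-84425516, minus strand) and 113 before in Apln (chrX:48034854-48035103, minus strand).
Robo4: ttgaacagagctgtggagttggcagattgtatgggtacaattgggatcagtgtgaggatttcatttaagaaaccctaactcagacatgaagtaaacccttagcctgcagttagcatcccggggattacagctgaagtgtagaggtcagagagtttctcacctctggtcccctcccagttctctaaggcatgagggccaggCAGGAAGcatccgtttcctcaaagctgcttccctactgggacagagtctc
Calcrl: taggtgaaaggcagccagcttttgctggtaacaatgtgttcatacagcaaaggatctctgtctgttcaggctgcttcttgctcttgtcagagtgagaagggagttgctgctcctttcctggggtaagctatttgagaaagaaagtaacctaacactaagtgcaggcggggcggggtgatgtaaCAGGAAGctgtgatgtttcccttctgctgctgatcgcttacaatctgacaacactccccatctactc
Apln: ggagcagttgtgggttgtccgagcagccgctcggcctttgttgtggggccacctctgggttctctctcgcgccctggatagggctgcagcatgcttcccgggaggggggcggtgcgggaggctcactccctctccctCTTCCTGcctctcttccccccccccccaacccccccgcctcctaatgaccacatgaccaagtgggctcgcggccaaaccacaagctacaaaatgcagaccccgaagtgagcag

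Genes of endothelial junctions followed the receptors. Of 13 tested, 10 were higher than in stromal-like cells (5 without tumor 2 and 6 without tumor 3), 13 than in macrophage-like cells and 12 than in tumor-like cells. Pecam1 (CD31, a junctional adhesion molecule shared with leukocytes) had 1161, 846 and 937 CPM and was above stromal-like sums by 6.08 ± 0.64 (adjusted p = 3.75e-05). Macrophage-like sums also held it, at 235, 82.0 and 97.6 CPM, and the difference from them was smaller, at 2.77 ± 0.50 (adjusted p = 0.000979). Esam had 649, 648 and 482 CPM (2.81 ± 0.49 over stromal-like sums, adjusted p = 0.00141) and Cd93 had 1007, 409.7 and 783 CPM (3.35 ± 0.55, adjusted p = 0.000969). Both are surface proteins of endothelial contacts. Cd34 was above stromal-like sums by 2.04 ± 0.57 (adjusted p = 0.0332), a call lost without tumor 1, 2 or 3 (adjusted p = 0.0686, 0.0806 and 0.160).

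Of 4 genes tested whose products hold leukocytes on the vessel wall, Icam2 alone was higher than in stromal-like cells, at 296, 145 and 301 CPM against 4.23, 0 and 0 (6.17 ± 0.83, adjusted p = 0.000209). Icam1 had 182, 185 and 172 CPM and Vcam1 had 395, 66.1 and 146 CPM, and neither passed against stromal-like sums (1.27 ± 0.75, adjusted p = 0.401; -0.56 ± 0.76, adjusted p = 0.794). Both were above tumor-like sums (4.06 ± 0.84, adjusted p = 0.00232; 4.99 ± 0.93, adjusted p = 0.00104). Sele, the endothelial selectin, had 6 UMIs in all. A single cell gave 42.2% and 92.9% of the Icam1 UMIs in tumors 1 and 2, and 48.3% and 82.4% of the Vcam1 UMIs in tumors 1 and 3. Against macrophage-like cells 2 of the 4 genes were higher (1 without tumor 2, 1 without tumor 3). None of the list was lower than in stromal-like cells, against 1 without tumor 1 and 1 with a replicate block.

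Among 17 transcription factors of endothelial identity, 8 were higher than in stromal-like cells, 9 than in macrophage-like cells and 15 than in tumor-like cells. Sox18, which acts in vessel and lymphatic development, had 349, 145 and 258 CPM and was above stromal-like sums by 6.99 ± 0.67 (adjusted p = 2.09e-05). Tcf4 had 1356, 1123 and 1092 CPM. It was above stromal-like (2.20 ± 0.35, adjusted p = 0.000697) and macrophage-like sums (2.36 ± 0.35, adjusted p = 0.000183), but tumor-like sums held 788 ± 192 CPM and did not pass (0.60 ± 0.33, adjusted p = 0.168). Klf2, a factor that blood flow induces, had 465, 463 and 482 CPM, within the range of stromal-like sums (476, 545 and 409 CPM, -0.02 ± 0.40, adjusted p = 0.998), and exceeded tumor-like sums by 3.13 ± 0.43 (adjusted p = 8.7e-05). Epas1 (HIF-2 alpha) had 395, 409.7 and 482 CPM. Its stromal-like difference of 1.65 ± 0.45 (adjusted p = 0.0281) was lost without tumor 1 (adjusted p = 0.118) or tumor 3 (0.164).

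Of 10 Notch pathway genes tested, 5 were higher and 2 lower than in stromal-like cells (3 higher and 1 lower without tumor 1, 2 higher without tumor 2). Notch4, the receptor of endothelium, had 186, 106 and 224 CPM against 3.52, 0 and 0 (5.87 ± 0.62, adjusted p = 3.73e-05). Notch3, the receptor of mural cells, had no UMI in endothelial cells against 169.9, 103 and 264 CPM in stromal-like sums, at least 37.3-fold lower, and Heyl, a Notch target, was at 0 against 87.7 ± 63.0 CPM. Notch3 and Heyl are named after their values were seen. Notch1 had 265, 159 and 267 CPM, and its difference of 2.5 ± 0.60 (adjusted p = 0.0137) was lost without tumor 2 (adjusted p = 0.0603) or tumor 3 (0.0992). Against macrophage-like and tumor-like cells 6 genes were higher and 1, Rbpj, was lower in each comparison, and no gene was lower without tumor 1, 2 or 3. Rbpj, the DNA-binding partner of Notch, had 37.3, 13.2 and 34.4 CPM.

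In the BMP and TGF-beta pathway, 6 of 13 genes were higher than in stromal-like cells (2 without tumor 2, 1 without tumor 3), 8 were higher and 2 lower than in macrophage-like cells, and 11 were higher than in tumor-like cells. Eng (endoglin, a coreceptor for BMP9) had 1187, 912 and 602 CPM and differed by 4.06 ± 0.58 from stromal-like sums (adjusted p = 0.000307) and by 6.96 ± 0.66 from macrophage-like sums (adjusted p = 5.1e-06). Id1, a target of BMP signals, had 289.6, 344 and 318 CPM. It was above stromal-like sums by 1.89 ± 0.45 (adjusted p = 0.0135), which was lost without tumor 2 (adjusted p = 0.0620) or tumor 3 (0.155), and above tumor-like sums by 4.65 ± 0.49 (adjusted p = 8.42e-06). Id2 and Tgfbr1 were the 2 genes lower than in macrophage-like cells, named after their values were seen.

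Matrix genes separated endothelial from macrophage-like and tumor-like cells far more than from stromal-like cells. Of 20 basement membrane and matrix genes, 18 were higher than in macrophage-like cells and 17 than in tumor-like cells, with medians of 7.60 and 6.77. Against stromal-like cells 4 were higher (Nid2, Hspg2, Sparcl1 and Mmrn2) and 4 lower (Fn1, Mgp, Col3a1 and Loxl2). Without tumor 2 these were 2 and 2, and without tumor 3 they were 2 and 1. Col4a1, a chain of basement membrane collagen, had 5257, 2603 and 2881 CPM in endothelial and 2565, 2182 and 2372 CPM in stromal-like sums (0.60 ± 0.50, adjusted p = 0.605). Igfbp7, a secreted matrix protein of vessels, had 4660.2, 5603 and 5960.2 CPM, near the 3820.3, 3611 and 5281 CPM of stromal-like sums (0.35 ± 0.55, adjusted p = 0.838). Sparc, a collagen-binding protein, had 4976, 4057 and 6407 CPM against 9769.9, 9150.0 and 7789.9 (-0.79 ± 0.44, adjusted p = 0.353). All 3 were above tumor-like sums, by 7.58 ± 0.68, 6.91 ± 0.71 and 6.77 ± 0.56 (adjusted p = 2.54e-06, 7.45e-06 and 1.54e-06). Mmrn2, an endothelial matrix protein that binds Cd93, had 564, 278 and 490.2 CPM and no stromal-like UMI, at least 284-fold higher. The interstitial collagen gene Col3a1 had 16 UMIs in all endothelial cells, against 7993 ± 2901 CPM in stromal-like sums (-8.44 ± 0.96, adjusted p = 6.56e-05). For Mgp, an inhibitor of calcification, 1 cell gave 84.9% of the UMIs in tumor 1.

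Of 13 genes of hemostasis and vessel tone, 3 were higher (Nos3, Ece1 and Ednrb) and 1 lower (Ptgis) than in stromal-like cells, with 2 lower without tumor 1. Ece1, which matures endothelin, had 318, 370.0 and 258 CPM and differed by 2.60 ± 0.34 from stromal-like sums (adjusted p = 0.000154). Nos3 (endothelial nitric oxide synthase, named after its values were seen) had 103, 39.6 and 77.4 CPM and differed by 6.75 ± 0.89 (adjusted p = 0.000178), and fell under the filter on low counts without tumor 1. Ptgis, the prostacyclin synthase, also named after its values were seen, had no UMI in endothelial cells and 307, 809 and 176 CPM in stromal-like sums, at least 71.1-fold lower. Thbd (thrombomodulin, which turns thrombin against clotting) had 108, 66.1 and 112 CPM and was above tumor-like sums by 6.38 ± 0.77 (adjusted p = 2.81e-05). Against macrophage-like cells 8 genes of the list were higher (5 without tumor 1), and against tumor-like cells 11.

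Antigen presentation genes divided by class. Of 10 MHC class I genes tested, 8 were higher than in tumor-like cells, none differed from stromal-like cells at the threshold (1 was higher without tumor 1, and 1 with a replicate block, which pairs the classes of each tumor), and 1, B2m, was lower than in macrophage-like cells (4 with a replicate block). H2-D1 had 1248, 885 and 834 CPM in endothelial and 243, 128 and 119.8 CPM in tumor-like sums (2.62 ± 0.45, adjusted p = 0.000571), and 968, 339 and 433 CPM in stromal-like sums (0.75 ± 0.43, adjusted p = 0.380, or 0.0192 with a replicate block). B2m, the light chain, had 1062, 740.1 and 387 CPM. It was above tumor-like sums by 2.81 ± 0.51 (adjusted p = 0.000769) and differed from macrophage-like sums by -1.59 ± 0.48 (adjusted p = 0.0265), and the second call was lost without tumor 2 (adjusted p = 0.0629) or tumor 3 (0.145). MHC class II transcripts were nearly absent. Cd74, the invariant chain, had 32.9, 0 and 17.2 CPM from 17 UMIs against 8216, 1823 and 7452 CPM in macrophage-like sums (-8.00 ± 1.60, adjusted p = 0.00198). All 6 class II genes tested were lower than in macrophage-like cells (median -8.11, or -7.80 with the gene at 0 set to its bound). With a replicate block 6 were also lower than in stromal-like and 4 than in tumor-like cells, against 1 and 0 without it. Without the block the stromal-like count was 0 when tumor 1 was left out and 3 when tumor 2 was. At least 3 macrophage-like genes were seen in 18 of 80 stromal-like cells of tumor 1, and in none of those of tumors 2 and 3. The part of macrophage RNA in the stromal-like class II levels was not tested. The share of endothelial cells with a UMI of Cd74 was 10.8%, against 7.22% of tumor-like cells, which should lack it and were less deeply sequenced. Thinned to 1000 UMIs the shares were 2.78% and 3.64%. These shares pool the tumors, and 38 of 74 endothelial cells were from tumor 1 but 1099 of 1579 tumor-like cells from tumor 3. They therefore cannot decide whether endothelial cells were above this background.

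Interferon-induced genes were higher than in tumor-like cells for 11 of 13 tested, and none passed against stromal-like cells, where 2 were higher without tumor 1. A replicate block called 2 of them higher and 1 lower than in stromal-like cells. Ifitm3, which blocks virus entry, had 1047, 885 and 645 CPM in endothelial, 1938, 2266 and 1194 CPM in stromal-like and 35.6, 24.9 and 38.0 CPM in tumor-like sums (4.71 ± 0.77 over the last, adjusted p = 0.000348). Against macrophage-like cells Ly6a and Ly6c1 were higher and Irf7 lower, and no gene was lower without tumor 1, 2 or 3. Among 11 chemokines and cytokines tested, 1 (Kitl) was higher and 4 (Cxcl1, Cxcl10, Cxcl16 and Il33) were lower than in stromal-like cells (2 lower without tumor 2). Cxcl12, the ligand of Cxcr4, had 173, 106 and 120.4 CPM against 143 ± 116 in stromal-like sums, which did not pass, and was above tumor-like sums by 6.17 ± 0.76 (adjusted p = 3.18e-05). Kitl (stem cell factor) had 132, 52.9 and 112 CPM. Its stromal-like call (1.94 ± 0.52, adjusted p = 0.0277) was lost without tumor 1 (adjusted p = 0.388) or tumor 3 (0.269), while it exceeded macrophage-like sums by 5.79 ± 0.67 (adjusted p = 2.58e-05). Ccl2, which draws monocytes, had 516, 0 and 34.4 CPM, and 1 cell gave 70.2% of the tumor 1 value. Against tumor-like cells 6 chemokines and cytokines were higher (Ccl2, Cxcl1, Cxcl12, Cxcl16, Csf1 and Kitl), and 2 were without tumor 1. There the calls of Ccl2, Cxcl1 and Cxcl16 were lost (adjusted p = 0.241, 0.846 and 0.360), and Csf1 could not be tested. Of 8 genes tested in the list of immune checkpoint ligands, which also holds the receptor gene Havcr2 (TIM-3), none passed against stromal-like cells. Against macrophage-like cells 2 were higher and 3 (Cd274, Vsir and Havcr2) lower (1 lower without tumor 1), and 6 were higher than in tumor-like cells. Cd274 (PD-L1, named after its values were seen) had 6 UMIs in 5 cells and differed from macrophage-like sums by -2.91 ± 0.68 (adjusted p = 0.00578), a difference that could not be tested without tumor 1, where the gene fell under the filter on low counts.

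Of 9 ligands that act on mural cells or neighboring tissue, 3 were higher (Pdgfb, Efna1 and Apln) and 2 lower (Wnt5a and Igf1) than in stromal-like cells, with 1 lower when any 1 tumor was left out. Pdgfb, which recruits pericytes, had 224, 159 and 146 CPM in endothelial and 6.34, 18.8 and 0 CPM in stromal-like sums (4.68 ± 0.63, adjusted p = 0.000209). Its difference from macrophage-like sums (1.66 ± 0.46, adjusted p = 0.0159) was lost without tumor 1 (adjusted p = 0.165) or tumor 3 (0.0587). Efna1, a membrane ligand of Eph receptors, had 112, 66.1 and 112 CPM (3.68 ± 0.65, adjusted p = 0.00152).

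Fatty acid genes were higher for 4 of 8 tested against stromal-like cells (Cd36, Fabp4, Gpihbp1 and Scarb1), while 1, Lpl, the lipase that Gpihbp1 holds, was lower (4.39, 119 and 0 against 401 ± 299.6 CPM, -4.12 ± 1.0, adjusted p = 0.0154). The call of Lpl, which was named after its values were seen, was lost without tumor 1 (adjusted p = 0.147) or tumor 3 (0.146). Against tumor-like cells 5 fatty acid genes were higher and none lower, or 1 lower with a replicate block. Of 14 glycolysis genes none passed against stromal-like cells (1 was lower without tumor 1, and 1 with a replicate block), and 1 was higher than in tumor-like cells (none without tumor 1 or 3). Ldha, lactate dehydrogenase, was even at 309, 330.4 and 284 CPM against 419 ± 79.6 in tumor-like sums (-0.45 ± 0.29, adjusted p = 0.248). Against macrophage-like cells 1 glycolysis gene (Hk1) was higher and 3 (Gpi1, Aldoa and Pgam1) were lower. No gene was lower without tumor 2 or 3, and the call of Hk1 was lost without tumor 3 (adjusted p = 0.123) and could not be tested without tumor 1. In the caveolae list 5 of 10 genes were higher and 1 lower (Lrp1) than in stromal-like cells (2 higher without tumor 2 or 3), 8 were higher and 1 (Lrp1) lower than in macrophage-like cells, and 9 were higher and 1 (Tfrc) lower than in tumor-like cells. Tfrc could not be tested without tumor 1. Cav1, the caveolar coat protein, had 502, 238 and 284 CPM against 342, 226 and 152 in stromal-like sums (0.51 ± 0.39, adjusted p = 0.555) and exceeded tumor-like sums by 7.39 ± 0.57 (adjusted p = 8.34e-07). Blood-brain barrier genes were low. Of 10, only 3 could be tested, and 2 of them (Itm2a and Slc16a1) were lower than in stromal-like cells (1 without tumor 1 or 2). None passed against macrophage-like cells, where 1 was lower with a replicate block. Slc2a1, the glucose transporter of that barrier, had 26 UMIs in 13 cells and was not tested.

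Of 7 hypoxia genes tested, 2 (Hif1a and Aplnr) were higher and 1 (P4ha1) lower than in stromal-like cells. This became 1 higher without tumor 2 or 3, none lower without tumor 1 or 2, and 2 lower with a replicate block. Against macrophage-like cells 4 were higher (Adm, Ndrg1, Hif1a and Aplnr, 2 without tumor 1 or 2). Against tumor-like cells 4 were higher (Ddit4, Ndrg1, Hif1a and Aplnr). Aplnr is also counted in the venous list. With a replicate block 1 was lower than in macrophage-like cells. Ndrg1, which low oxygen induces, had 134, 211 and 43.0 CPM and was above tumor-like sums by 2.60 ± 0.50 (adjusted p = 0.00130). Cells switch on immediate early genes within minutes of a stimulus. Of 18 immediate early and heat shock genes tested, 7 were lower than in stromal-like cells (3 without tumor 1 or 2, 1 without tumor 3). These were Fosb, Jun, Atf3, Egr1, Ier2, Ier3 and Zfp36, and the median over the 18 genes was -1.63. Jun had 658, 542 and 1092 CPM against 1062, 3470.1 and 1843 (-1.47 ± 0.42, adjusted p = 0.0363), a call lost without tumor 2 (adjusted p = 0.528) or tumor 3 (0.0797). Fos had 132, 846 and 456 CPM against 1456, 5341 and 938 (-2.48 ± 0.83, adjusted p = 0.0804, or 0.00807 with a replicate block). Against tumor-like cells 7 genes of this list were higher (3 without tumor 3, 11 with a replicate block) and 1, Hsp90aa1, was lower (2 with the block), at 487, 515 and 886 CPM against 2505 ± 209 (-2.0 ± 0.31, adjusted p = 0.000204). Against macrophage-like cells 1 was higher and 3 lower (1 lower without tumor 1, 5 without tumor 2, 6 with a replicate block).

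Cell cycle genes were seen in some endothelial cells. Mki67, a marker of cycling cells, was seen in 18 of 74 cells at 171, 39.6 and 198 CPM, and Top2a in 21 at 169, 52.9 and 189 CPM, with both in 10. Cells with Mki67 held 1 to 31 UMIs of it in tumor 1, 1 to 2 in tumor 2 and 1 to 10 in tumor 3. In tumor 3, 24 of 25 endothelial cells also had a tumor-like gene, and the part of tumor-like RNA in these counts was not tested. Thinned to 1000 UMIs per cell, Mki67 was seen in 6.94% of endothelial and 20.5% of tumor-like cells. Neither gene differed from tumor-like sums at the threshold (-1.04 ± 0.65, adjusted p = 0.230; -1.35 ± 0.71, adjusted p = 0.151). Of 13 S phase genes 3 were lower than in tumor-like cells (Mcm2, Mcm7 and Ung), and of 14 G2 and mitosis genes 2 were lower (Ccnb1 and Plk1). Over all genes tested 13% were lower in this comparison. The second count was near that share, and with so few genes neither count is read as a result about its list. Without tumor 2 the calls of all 3 S phase genes were lost (adjusted p = 0.0967, 0.175 and 0.115) and 1 other gene passed, and without tumor 3 those of Mcm2 and Ung were lost (0.177 and 0.0766). The call of Plk1 was lost without tumor 1 (adjusted p = 0.0539) and with a replicate block (0.0512). Without tumor 1, 8 G2 and mitosis genes were lower, and without tumor 2 or 3 none was. Neither list had a gene past the threshold against stromal-like cells. Without the cells that carried several genes of another cell type, 1 S phase gene and 1 G2 and mitosis gene were lower than in tumor-like cells.

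The genes with the largest differences, among genes whose higher class averaged 50 CPM or more and that moved the same way in all 3 tumors, were Mmrn2, Ednrb, Robo4, Cyyr1 and Tmem252 against stromal-like cells. None of these had a stromal-like UMI. Cyyr1 had 184, 370.0 and 215 CPM, and Tmem252 had 145, 608 and 34.4 CPM, highest in tumor 2. Tmem252 fell under the filter on low counts without tumor 1. Lower than in stromal-like cells were Igfbp6, Saa3, Col6a3, Col14a1 and Rarres2, none with an endothelial UMI, at least 234-fold, 271-fold, 174-fold, 168-fold and 136-fold. Against macrophage-like cells the largest increases were in Gpihbp1, Clec14a, Esm1, Ptprb and Adgrf5. Clec14a, a lectin of tumor vessels, had 211, 344 and 292 CPM and no UMI in 669 macrophage-like cells, at least 354-fold higher. Adgrf5, an adhesion receptor, had 487, 409.7 and 439 CPM and 1 macrophage-like UMI, a ratio of 2072 (95% counting interval 369 to 82104). The largest decreases were in Cd5l, Ccl4, Saa3, H2-DMb1 and Ccl3, all at 0 in endothelial cells. The call of Saa3 was lost without tumor 1 (adjusted p = 0.0898). Against tumor-like cells the largest increases were in Kcne3, Inhbb, Adgrl4, 8430408G22Rik and Kctd12b. Inhbb, an activin subunit, had 176, 225 and 94.6 CPM and no tumor-like UMI, at least 208-fold higher. Adgrl4, an endothelial adhesion receptor, had 412, 595 and 292 CPM and 1 tumor-like UMI, a ratio of 1542 (95% counting interval 274 to 61138). The largest decreases, in Nefh, Rab3b, Kcnk9, Scg3 and Mirg, were of genes at 0 in endothelial cells. The calls of Nefh and Rab3b were lost without tumor 2 (adjusted p = 0.0673 and 0.0534) or tumor 3 (0.0539 and 0.0570), and that of Mirg without tumor 2 (0.0781).

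The 3 tumors were not alike in their endothelial cells. With 1 sum per tumor there is no test, and the counts here rest on Poisson intervals, which cover counting error only. Of 3264 genes at 50 CPM or more, 594 (18.2%) had at least 1 pair of tumors whose 95% intervals did not overlap. Tumor 2 was above tumor 1 for 169 genes (5.18%) and tumor 3 above tumor 1 for 221 (6.77%). Fabp4 (interval 13793 to 15531 CPM in tumor 2 against 1897 to 2160.1 CPM in tumor 1), Gpihbp1, Cd36, Tmem252 and Plvap were highest in tumor 2. There 3 of the 11 cells held 434, 381 and 199 of the 1108 Fabp4 UMIs. Gja5 and Efnb2 were highest in tumor 3, as was Igfbp3. Col4a1, Eng, Selp and Ccl2 were highest in tumor 1, with 70.2% of the Ccl2 UMIs of that tumor from 1 cell. Age, number of cells, depth and hemoglobin transcripts also differed between these tumors and cannot be told apart from them.

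Within the tumors, the cells carried different sets of these genes. Esm1 was seen in 36 of the 74 cells and Cd36 in 25, with both in 11. Of the 12 cells with Gja5, 10 also had Esm1, 7 had Gja4 and 1 had Cd36. None of the 11 cells with Selp had Gja5, but 9 of the former were in tumor 1 and 8 of the 12 latter in tumor 3. Of the 25 cells with Cd36, 24 had Fabp4, which was seen in 63 cells in all. Apln and Esm1 were seen together in 15 of the 20 cells with Apln. These counts are descriptions, since the cells share 3 libraries and a deeper cell shows more genes. After thinning to 1000 UMIs, Plvap was seen in 66.7% of 72 endothelial cells, Fabp4 in 66.7%, Gpihbp1 in 47.2%, Esm1 in 20.8% and Cd36 in 15.3%. In 1568 tumor-like cells thinned in the same way these genes were seen in 0.383%, 2.30%, 0.319%, 0.446% and 0.128%.

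**Figure D4:**
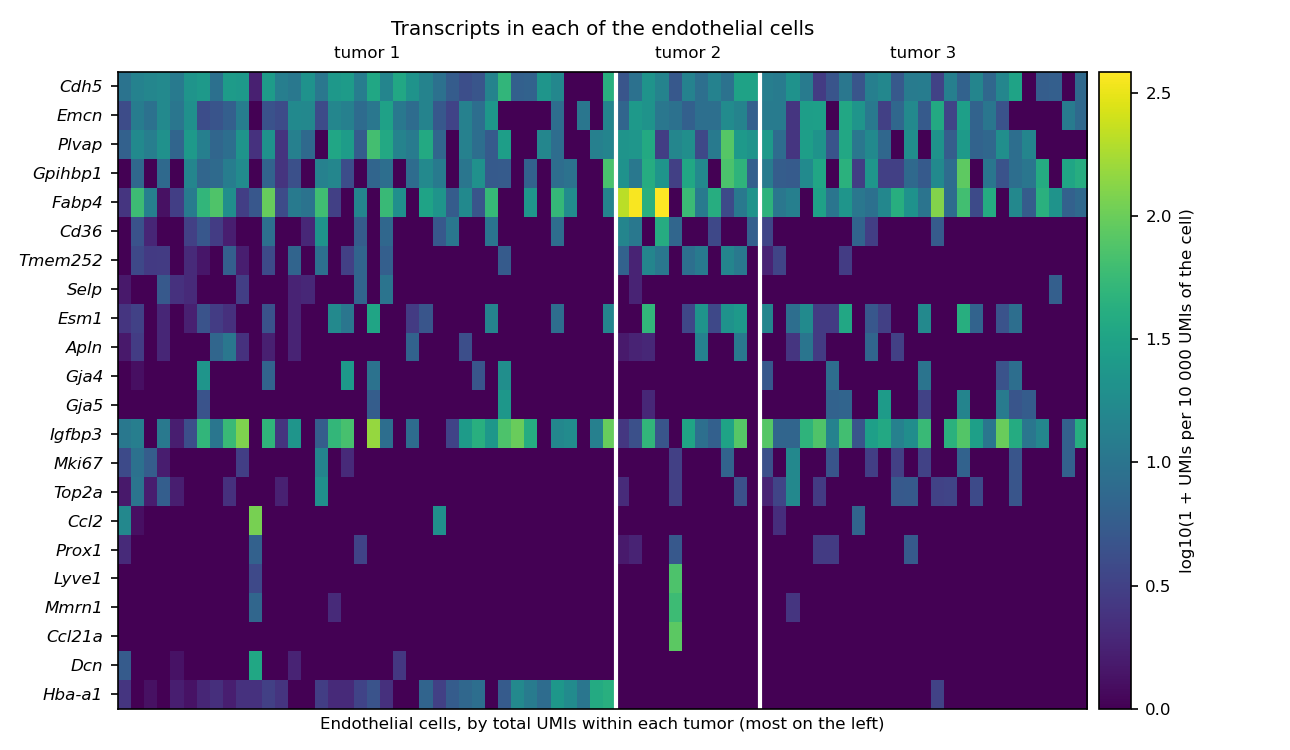
Transcripts of 22 genes (rows) in each of the 74 endothelial cells (columns), on a log10 scale of UMIs relative to the total of the cell, grouped by tumor and ordered by total UMIs. Cdh5 and Emcn run through most cells, Fabp4 is strongest in tumor 2, Gja5 is mainly in tumor 3 (8 of 12 cells), and 1 cell of tumor 2 carries Lyve1, Mmrn1 and Ccl21a.

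Transcripts of lymphatic endothelium were concentrated in 2 cells. A cell of tumor 2 held 35 UMIs of Lyve1, 28 of Mmrn1, 15 of Reln, 41 of Ccl21a and 2 of Prox1. A cell of tumor 1 held 8 UMIs of Prox1 (the lymphatic master regulator), 4 of Lyve1, 9 of Mmrn1 and 3 of Pdpn, together with 50 of Dcn and 165 of Ccl2. The pair held all 39 Lyve1 UMIs of the endothelial cells. Prox1 was also seen in 24.6% of tumor-like cells and 12.2% of endothelial cells, so that alone it does not mark these cells. Of the 3 lymphatic genes that could be tested, Flt4, also in the receptor list, was higher than in stromal-like and macrophage-like cells. Its stromal-like call was lost without tumor 1 (adjusted p = 0.218) or tumor 3 (0.0652). Against tumor-like cells 2 of the 3 were higher (1 without tumor 1, 1 without tumor 2). With these 2 cells left out, an alternative chosen after seeing the data, 349 genes were higher and 412 lower than in stromal-like cells.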

How the data were processed

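Whole tumors of 3 TH-MYCN mice were profiled with 10x Chromium 3′ v3.1 chemistry. Per the labels and the submitters' processing notes, the authors made UMI counts with Cell Ranger 3.1.0 on mm10, and used Seurat 3.1.5. The deposited raw counts held 31053 genes. The deposited normalized files held natural log values, ln(count + 1) of a corrected count, after the authors had corrected for ambient RNA, removed doublets and dropped barcodes outside limits set for each tumor. Their barcodes (1914, 1221 and 2515) defined the kept cells, and no further cell filter or doublet caller was run.

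Raw counts of kept cells were summed per tumor and class (at least 10 cells a sum) and tested with edgeR 4.0.16 in R 4.3.3 (TMM scaling, filterByExpr, quasi-likelihood test, Benjamini-Hochberg, threshold 0.05), with all 12 sums in 1 fit and no replicate block. DESeq2 1.42.0, no filter on low counts, leaving out each tumor, a replicate block, the corrected counts and stricter membership were alternatives. The scripts were tested on simulated data. Levels are CPM on TMM-scaled totals. The sums held 438040, 71358 and 111286 UMIs in endothelial cells, so that 1 UMI in tumor 2 weighed most. Python 3.11.15 with pandas 2.3.3 and scipy 1.17.1 was used elsewhere.

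The classes of each tumor come from the same animal and so pair. The deviations of their sums from the class means correlated by 0.0749 to 0.379 within a tumor (median 0.117, 9 pairs) and by -0.302 to 0.130 between tumors (median -0.0578, 18 pairs).

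Members and the 29 gene lists were chosen with earlier results of these data known. Genes were named by a rule. It took up to 5 genes per comparison and direction with the largest fold change, past the threshold, in the same direction in 3 tumors and with at least 50 CPM in the higher class, and the 6 genes of each list with the highest endothelial CPM. It also took the genes that chose the cells and the VEGF and angiopoietin ligands. In lists where no gene reached 20 CPM, UMIs are given. Some items are not reported here.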

Additional observations from a re-analysis of the deposited data

Results flagged for a closer look

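Barcodes that the authors did not keep were outside every comparison, and some of them met the endothelial rule. There were 23 in tumor 1 of 1343, 4 in tumor 2 of 3106 and 7 in tumor 3 of 3523. Their median share of mitochondrial UMIs was 29.7%, 22.5% and 22.7%, above the 6.5%, 5.59% and 7.66% of the kept endothelial cells, and 20, 4 and 4 of them had at least 20%. Their median UMI counts were 3063, 3440.5 and 4296. At least 3 tumor-like genes were seen in 0, 1 and 4 of them. Plvap stood at 1021 CPM of the raw total in these barcodes of tumor 1, against 1365 in the kept cells, at 610.2 against 2270.2 in tumor 2 and at 110.0 against 1249 in tumor 3.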

How the results depend on the processing

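No comparison of a gene named by the rule reversed. Among the other list genes, Cxcl1 and Mgp against tumor-like cells went from 4.13 and 3.0 on the log2 scale to -2.23 and -0.81 without tumor 1, neither past the threshold there. Leaving out 1 tumor gave 181 to 214 genes higher and 221 to 318 lower than in stromal-like cells, 455 to 691 higher and 395 to 647 lower than in macrophage-like cells, and 925 to 1151 higher and 234 to 538 lower than in tumor-like cells. The authors' corrected counts, on which fewer genes could be tested, gave 171 higher and 189 lower than in stromal-like cells, 331 lower than in macrophage-like cells, and 949 higher and 391 lower than in tumor-like cells. With no filter on low counts 833 genes were lower than in stromal-like cells and 1275 higher than in macrophage-like cells. The cause was not tested. DESeq2 kept all counts within 1.5 times, but moved the share of calls that were higher against tumor-like cells from 61.75% to 68.28%. A replicate block, which pairs the classes of a tumor, gave 385 and 480, 824 and 964, and 1489 and 1120 genes higher and lower in the 3 comparisons. Of the comparisons of genes named by the rule, 33 passed the threshold only with the block and none was lost. Of the other list genes the calls of Mgp and Plk1 against tumor-like cells were lost with it (adjusted p = 0.0585 and 0.0512), and the list counts it moved by more than 1.5 times are given with each list. The share of endothelial cells in tumor 1 was 3.87% with 2 endothelial genes and 0.940% with no stromal gene. Tumor 2 had 11 cells and 71358 UMIs, which limits what could be seen there.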
